A study of Mus musculus with 2 samples.

Results

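The mitochondrial ribosomal protein genes were taken as every gene of the count table whose symbol starts with Mrpl or Mrps followed by a number. There were 77 such genes among the 25509 genes of the table, and all 77 reached 10 counts in either library, a limit that 12941 genes passed. The lowest count of any of them in either library was 415 and the highest was 5754, so none entered through 1 library alone. They were compared between 2 poly(A) RNA-seq libraries of soft-tissue sarcoma cells from C57BL/6 mice. In both groups the cells were mesenchymal stem cells labelled p53-/-Ccne1+, that is with p53 knocked out and Ccne1 overexpressed, which had formed tumors under the skin of a first set of mice, were then seeded in the lungs of a second set, and were taken back from the lung foci. They were transduced with a hairpin against circCsnk1g3 (shcircCsnk1g3) in 1 library and with the control hairpin (shCTR) in the other. Each condition was a single library, so no test between conditions was possible, and the values describe these 2 libraries.

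The mitochondrial ribosome, or mitoribosome, translates the few mRNAs encoded by mitochondrial DNA, all of which specify subunits of the oxidative phosphorylation complexes. Its rRNAs are made inside the organelle, whereas all of its proteins are encoded in the nucleus, translated in the cytosol and imported. Compared with its bacterial relatives it has lost rRNA and gained proteins found only in mitochondria, and its large subunit sits at the inner membrane, where the new chains are inserted.

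The transcripts of these genes were, on balance, slightly lower in the shcircCsnk1g3 library, and few of them differed by much. Each change is given as the log2 fold change (shcircCsnk1g3 over shCTR) of TMM-scaled CPM (counts set against the depth of the library). Beside it stands a 95% Clopper-Pearson interval, taken from both counts of the gene. It reflects counting error alone, treats reads as independent molecules and leaves out the spread between cultures. The median of the 77 genes was -0.07, beside 0.00 for all 12941 genes tested. The values ran from -0.41 for Mrpl51 to 0.34 for Mrpl46, and the middle 50% of the genes lay between -0.19 and 0.04. Of the 77 genes, 26 were above 0, which is 33.8% beside 50.4% of all genes tested. A fold limit of 0.32 on the log2 scale, which is 25% higher or 20% lower, was passed upwards by Mrpl46 alone, beside 12.3% of all genes tested, and downwards by Mrpl51 alone, beside 13.1%. Mrps12, at -0.319, fell just short of the lower limit, which is 0.322 before rounding to 2 digits. The largest differences in either direction were 1.27-fold for Mrpl46 and 1.33-fold for Mrpl51.

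Because fold changes of genes with few counts scatter more, the same counts were set beside the 10662 genes whose counts in both libraries summed to 200 or more, a limit that all 77 genes passed. Among those genes 50.2% were above 0, 7.79% were at least 25% higher and 9.06% at least 20% lower. The SD of the log2 fold changes was 0.147 over the 77 genes and 0.300 over the 10662. The middle 50% of the genes spanned 0.229 and 0.273, a smaller difference than that of the SDs. The interval lay wholly above 0 for 6 of the 77 (7.79%), beside 26.9% of all genes tested and 29.5% of those with 200 counts. It lay wholly below 0 for 32 (41.6%), beside 28.2% and 31.0%, and it spanned 0 for the other 39. The share with an interval wholly above 0 was thus below the background and the share wholly below 0 was above it. Summed over the 77 genes there were 113802 counts in the shcircCsnk1g3 library, 0.293% of its total, and 129816 in the shCTR library, 0.304%.

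The value of the median depended on the scale, but its distance from all genes did so mainly with the correction for GC content and length. With total counts in place of TMM factors, the median of all genes tested was higher by 0.03 on the log2 scale, and that of the 77 genes stood at -0.03. The distance between these medians was -0.07 on either scale. On total counts 34 of the 77 genes (44.2%) were above 0, beside 56.0% of all genes tested. The interval was then above 0 for 10 genes (13.0%), beside 31.8%, and below 0 for 28 (36.4%), beside 23.7%. After subtracting the median log2 fold change of genes of like GC content and length, the median of the 77 was -0.04, beside 0.00 for all genes, and 28 (36.4%) were above 0, beside 49.8%. The levels of the genes were alike in both libraries, with a Pearson r of 0.983 for log2 CPM across the 77 genes, which are not independent replicates.

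**Figure D1:**
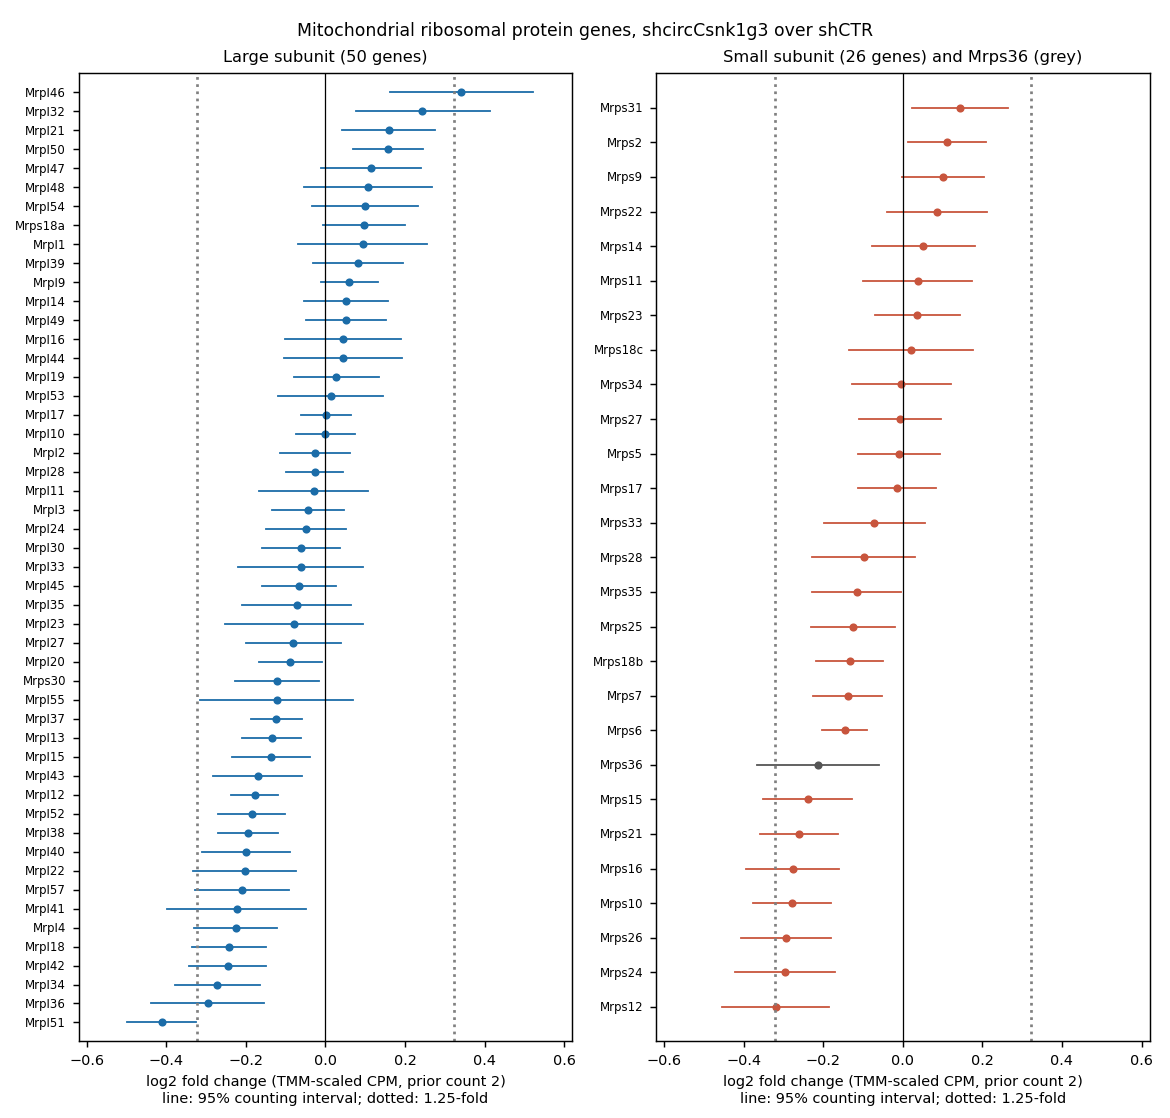
Log2 fold change (shcircCsnk1g3 over shCTR) of each of the 77 mitochondrial ribosomal protein genes, 1 point a gene, with bars for the 95% interval from counting error. Most points lie to the left of 0, and only Mrpl51 at -0.41 and Mrpl46 at 0.34 pass the limits of 25% higher and 20% lower.

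**Figure D2:**
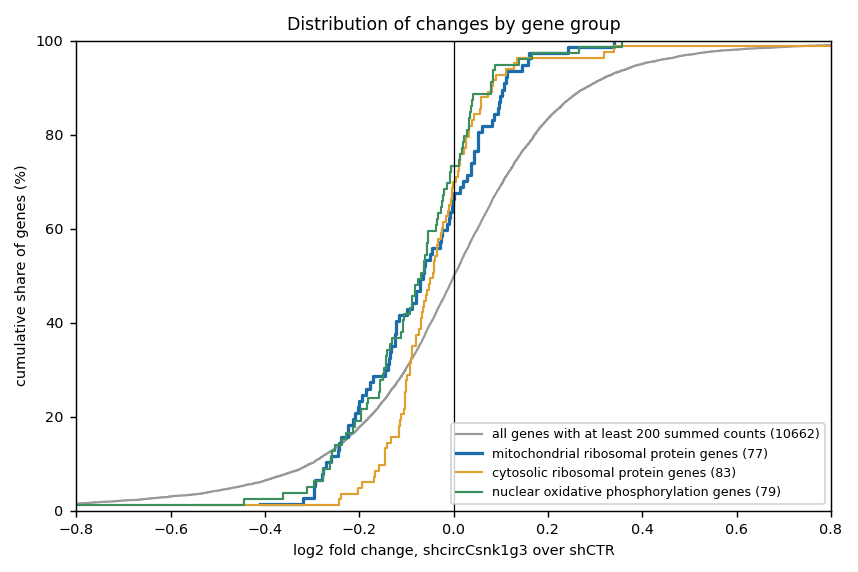
Cumulative share of genes by log2 fold change for the 77 mitochondrial ribosomal protein genes, the 83 cytosolic ribosomal protein genes, the 79 nuclear oxidative phosphorylation genes and all genes with at least 200 summed counts. The curve of the 77 genes has shorter tails than that of all genes, with an SD of 0.147 against 0.300. Its middle 50% is only a little narrower, spanning 0.229 against 0.273. It crosses 50% at a median of -0.07, to the left of the curve of all genes.

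The libraries differed little in depth, with 38792143 counts for shcircCsnk1g3 and 42709996 for shCTR. Csnk1g3, the host gene of the circRNA, had 2159 and 2411 counts (log2 fold change -0.05, interval -0.14 to 0.03), and poly(A) libraries do not measure the circRNA itself. Mesenchymal markers summed to 12190 CPM with shcircCsnk1g3 and 12710 with shCTR, although of the 10 listed Thy1 had 0 and 1 counts and Lum 9 and 0. Leukocyte markers summed to 3 and 8 counts, with Cd3e, Itgam, Adgre1, Ly6g and Nkg7 at 0 in both. Endothelial markers summed to 19 and 29 counts, with Kdr at 0 in both. Lung epithelial markers summed to 13 and 13, with Sftpc, Sftpb, Scgb1a1 and Epcam at 0 in both. Trp53 had 3841 and 4334 counts in cells labelled p53-/-, and a count per gene does not show which exons the reads came from. Transcripts annotated over ribosomal RNA loci were higher in the shcircCsnk1g3 library, with 99090 counts against 29819 for Yam1 (1.84, interval 1.82 to 1.86) and 60389 against 24337 for Gm42418 (1.42, interval 1.40 to 1.44), and their part in the results here was not tested. In bulk RNA, fewer cells of a type and less RNA per cell cannot be told apart.

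Split by subunit, the medians of both subunits were below 0, and whether they differ could not be tested. The median of the 50 genes of the large subunit, which joins the amino acids, was -0.06, with 18 above 0 (36.0%). Intervals in the large subunit were above 0 for 4 (8.0%) and below 0 for 19 (38.0%). The median of the 26 genes of the small subunit, which reads the mRNA, was -0.09, with 8 above 0 (30.8%). Intervals in the small subunit were above 0 for 2 (7.69%) and below 0 for 12 (46.2%). Over all genes tested these shares were 50.4%, 26.9% and 28.2%. Mrps18a and Mrps30 carry small-subunit names but encode large-subunit proteins and were counted there. Genes whose proteins have a bacterial counterpart (45) had a median of -0.06, and genes of mitochondria-specific proteins (31) had one of -0.07. Mrps36 was in none of these groups, since its protein is now known as a part of the 2-oxoglutarate dehydrogenase complex. It had 623 counts with shcircCsnk1g3 and 778 with shCTR (-0.21, interval -0.37 to -0.06).

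**Figure D3:**
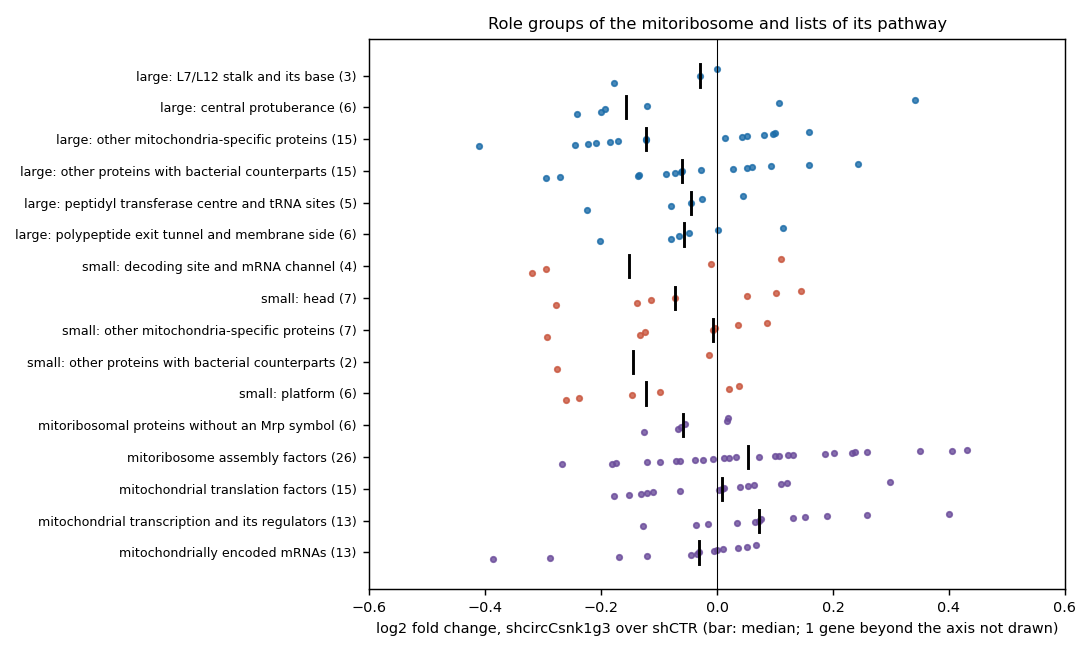
Log2 fold change of single genes, 1 point a gene, by the place or role of their proteins in the mitoribosome and in the pathway around it, with a black bar at each group's median. The role groups of the ribosome have medians between -0.16 and -0.01, and the assembly factors have a median of 0.05. Ppargc1b lies beyond the axis and is not drawn.

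Mrpl51, a mitochondria-specific protein of the large subunit, had the lowest value of the 77 genes. It had 1864 counts with shcircCsnk1g3 and 2671 with shCTR, a log2 fold change of -0.41 (interval -0.50 to -0.33). The gene (ENSMUSG00000030335.6) lies on the plus strand of GRCm38 chr6:125191801-125196269 with 3 exon blocks in GENCODE M21. Mrpl46, a mitochondria-specific protein of the central protuberance, had the highest. It had 559 counts against 475, a log2 fold change of 0.34 (interval 0.16 to 0.52). The gene (ENSMUSG00000030612.6) lies on the minus strand of chr7:78775236-78783531 with 5 exon blocks, back to back with Mrps11. Of its 1415 exon bases 173 overlap those of Mrps11 on the other strand, and whether the counting used strand is not given in the sources used here.

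Mrpl46 and Mrps11 are both mitoribosomal genes and their RefSeq promoter windows overlap, so these windows are printed below. Those of Mrpl51, Mrps12 and Mrpl32 are printed too, the genes with the lowest value of each subunit and the gene with the second-highest value. Each window holds 250 bases before the RefSeq start site and 50 from it on, in GRCm38.p6, written 5′ to 3′ on the strand of the gene. Capitals mark matches, on either strand, to GCATGCGC, the core of the site of NRF1, to CCGGAAG, bound by GABP and other ETS factors, to AAGATGGC, bound by YY1, or to the E-box CACGTG. These factors are known for sites in promoters of nuclear genes of mitochondrial proteins. The window of Mrpl51 is chr6:125191950-125192249 (plus strand), that of Mrps12 chr7:28741772-28742071 (minus), that of Mrpl32 chr13:14612988-14613287 (minus), that of Mrpl46 chr7:78783040-78783339 (minus) and that of Mrps11 chr7:78782881-78783180 (plus).
Mrpl51: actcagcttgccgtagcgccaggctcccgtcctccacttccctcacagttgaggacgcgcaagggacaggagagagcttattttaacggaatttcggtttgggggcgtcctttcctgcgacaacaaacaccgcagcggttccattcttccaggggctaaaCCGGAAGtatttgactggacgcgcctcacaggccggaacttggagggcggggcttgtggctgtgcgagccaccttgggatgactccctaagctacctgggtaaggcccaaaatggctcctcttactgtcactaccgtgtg
Mrps12: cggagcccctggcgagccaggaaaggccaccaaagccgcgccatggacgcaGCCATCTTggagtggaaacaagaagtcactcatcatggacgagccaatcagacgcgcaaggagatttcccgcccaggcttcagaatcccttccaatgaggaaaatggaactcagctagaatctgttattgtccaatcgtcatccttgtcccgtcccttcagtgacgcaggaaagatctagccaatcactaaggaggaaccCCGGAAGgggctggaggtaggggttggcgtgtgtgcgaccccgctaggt
Mrpl32: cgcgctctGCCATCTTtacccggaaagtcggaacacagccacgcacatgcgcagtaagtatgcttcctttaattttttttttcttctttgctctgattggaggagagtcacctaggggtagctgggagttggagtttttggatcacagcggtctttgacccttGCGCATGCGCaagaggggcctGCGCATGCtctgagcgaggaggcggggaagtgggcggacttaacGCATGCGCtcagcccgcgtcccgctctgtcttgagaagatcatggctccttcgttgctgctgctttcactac
Mrpl46: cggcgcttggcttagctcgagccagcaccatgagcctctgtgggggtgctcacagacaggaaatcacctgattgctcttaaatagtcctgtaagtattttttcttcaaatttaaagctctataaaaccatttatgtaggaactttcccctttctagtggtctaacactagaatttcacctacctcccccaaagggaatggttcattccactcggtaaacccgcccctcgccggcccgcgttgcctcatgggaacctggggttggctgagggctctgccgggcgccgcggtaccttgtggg
Mrps11: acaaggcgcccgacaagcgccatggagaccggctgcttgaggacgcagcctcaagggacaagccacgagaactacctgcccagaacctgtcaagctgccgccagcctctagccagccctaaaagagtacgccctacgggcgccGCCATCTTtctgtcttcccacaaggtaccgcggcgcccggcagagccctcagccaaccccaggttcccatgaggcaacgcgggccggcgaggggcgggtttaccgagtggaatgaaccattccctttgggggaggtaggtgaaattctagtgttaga

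The Mrpl51 window held 1 match, to CCGGAAG, at position -86 from the start site. The Mrps12 window held a match to CCGGAAG at position 5 and 1 to AAGATGGC on the opposite strand at -195. The Mrpl32 window held 4 matches to GCATGCGC, counting each strand, of which 2 overlap in a palindrome, and 1 to AAGATGGC. The Mrpl46 window held none of the 4 motifs, and the Mrps11 window held 1 match to AAGATGGC. The RefSeq start sites of Mrpl46 and Mrps11 lie 42 bases apart, and their windows share 141 bases, chr7:78783040-78783180, read from opposite strands. In GENCODE M21, the source of the exon overlap given above, the distance is -412 bases, where the minus sign means that the genes overlap. The 2 annotations thus place the starts differently, and the windows follow RefSeq. Mrpl46 had a log2 fold change of 0.34, while Mrps11, a platform protein, had 846 counts against 888 and a value of 0.04 (interval -0.10 to 0.18). Whether both transcripts start in the shared stretch was not tested. The 2 intervals overlap slightly.

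In the large subunit the low values were spread over several parts of the particle. By the list of parts used here, the central protuberance, which faces the small subunit and the tRNAs, had the lowest median. Other assignments of proteins to parts were not tried. The 6 genes listed for it had a median of -0.16, with 4 intervals below 0 (66.7%, beside 28.2% of all genes tested) and 1 above (16.7%, beside 26.9%). Mrpl18 had 1711 counts against 2181 (-0.24, interval -0.33 to -0.15), and Mrpl40 (-0.20), Mrpl38 (-0.19) and Mrps30 (-0.12) were also lower. Mrpl48 had 636 counts in each library, which is 0.11 after scaling (interval -0.05 to 0.27), and Mrpl46 was the member of this part already described as highest. The values of this group were thus unequal, with 4 genes lower, Mrpl48 within counting error and Mrpl46 higher.

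Among the 15 other mitochondria-specific genes of the large subunit the median was -0.12. Intervals were below 0 for 7 (46.7%, beside 28.2% of all genes tested) and above 0 for 1 (6.67%, beside 26.9%). After Mrpl51 the lowest was Mrpl42, with 1583 counts against 2023 (-0.25, interval -0.34 to -0.15). Of the 15 genes 7 were above 0 (46.7%, beside 50.4% of all genes tested). The only interval wholly above 0 was that of Mrpl50, with 2104 counts against 2032 (0.16, interval 0.07 to 0.25). Mrpl54 had 919 against 924 (0.10, interval -0.03 to 0.23), within counting error. Mrpl37, with the highest CPM of this group, had 3748 against 4398 (-0.12, interval -0.19 to -0.06). Mrpl55, with the lowest mean CPM of all 77 genes, had 415 against 487 (-0.12, interval -0.32 to 0.07).

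The 15 other large-subunit genes with a bacterial counterpart had a median of -0.06 and went both ways. Mrpl36 had 709 counts against 938 (-0.30, interval -0.44 to -0.15) and Mrpl34 had 1247 against 1622 (-0.27, interval -0.38 to -0.16). In the other direction Mrpl32, whose protein is processed by the m-AAA protease of the inner membrane before it joins the ribosome, had 609 against 554 (0.24, interval 0.08 to 0.41). Mrpl21 had 1218 against 1175 (0.16, interval 0.04 to 0.28). Intervals were below 0 for 5 of these genes (33.3%, beside 28.2% of all genes tested) and above 0 for 2 (13.3%, beside 26.9%). Mrpl21 shares 117 exon bases with Ighmbp2 on the other strand, 5.82% of its exon length.

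Fewer intervals lay off 0 in the remaining parts of the large subunit. The 5 genes of the peptidyl transferase center and tRNA sites, where peptide bonds are made, had a median of -0.04. Only Mrpl4 had an interval off 0, with 1339 counts against 1686 (-0.22, interval -0.33 to -0.12), and although it was listed here, its bacterial counterpart lines the exit tunnel. The 6 genes around the polypeptide exit tunnel and membrane side had a median of -0.06, and only Mrpl22 had an interval off 0 (-0.20, interval -0.33 to -0.07). There Mrpl47 had 1045 against 1040 (0.11, interval -0.01 to 0.24) and Mrpl23, with the third-lowest mean CPM, 514 against 585 (-0.08, interval -0.25 to 0.09). Of the 3 genes of the stalk, which recruits the translation factors, Mrpl12 had 4103 counts against 5001 (-0.18, interval -0.24 to -0.12), whereas Mrpl10 (0.00) and Mrpl11 (-0.03) were within counting error. Mrpl12 protein is also known as a partner of the mitochondrial RNA polymerase.

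In the small subunit the lowest values were at the decoding site and mRNA channel. Mrps12, whose bacterial counterpart acts in the fidelity of decoding, had 792 counts against 1065 (-0.32, interval -0.45 to -0.19). Mrps24 had 895 against 1184 (-0.30, interval -0.42 to -0.17), and 226 of its exon bases, 15.4% of its exon length, are shared with Urgcp on the same strand. The other 2 genes of this part were not lower by more than counting error, with -0.01 for Mrps5 and 0.11 (interval 0.01 to 0.21) for Mrps2, which had 1693 counts against 1689. The median of the 4 was -0.15.

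The 7 genes of the head of the small subunit had a median of -0.07. Mrps10 had 1492 counts against 1950 (-0.28, interval -0.38 to -0.18). Mrps31 had 1138 against 1109 (0.14, interval 0.02 to 0.27) and Mrps9 had 1537 against 1543 (0.10, interval -0.00 to 0.20). The 6 platform genes had a median of -0.12, and Mrps21 was lowest, with 1497 against 1932 (-0.26, interval -0.36 to -0.16). Mrps15 had 1181 against 1502 (-0.24, interval -0.35 to -0.13). Head and platform thus each held genes whose intervals excluded 0 on the low side, and the head also held 1 on the high side.

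Mrps6, another platform gene, had the highest CPM of the 77, a value not set against transcript length. It had 4825 counts with shcircCsnk1g3 and 5754 with shCTR (-0.15, interval -0.20 to -0.09). Per kilobase of its principal transcript its level was 145 CPM with shcircCsnk1g3 and 161 with shCTR, the highest of the 77 in each, beside 3.79 and 3.51 for Mrpl48, the lowest. The median level per kilobase over the 77 genes was 22.9 with shcircCsnk1g3 and 24.7 with shCTR, and Mrpl37 stood at 63.8 and 69.5 and Mrpl55 at 11.3 and 12.3. On the same strand Mrps6 shares 305 exon bases, 19.9% of its exon length, with Gm49711, and 159 bases with Slc5a3. Of the remaining genes of the small subunit, Mrps16 had 1045 counts against 1364 (-0.28, interval -0.39 to -0.16) and Mrps17 was at -0.01. The 7 mitochondria-specific genes had a median of -0.01, with Mrps26 lowest at 1127 against 1488 (-0.29, interval -0.41 to -0.18).

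**Figure D4:**
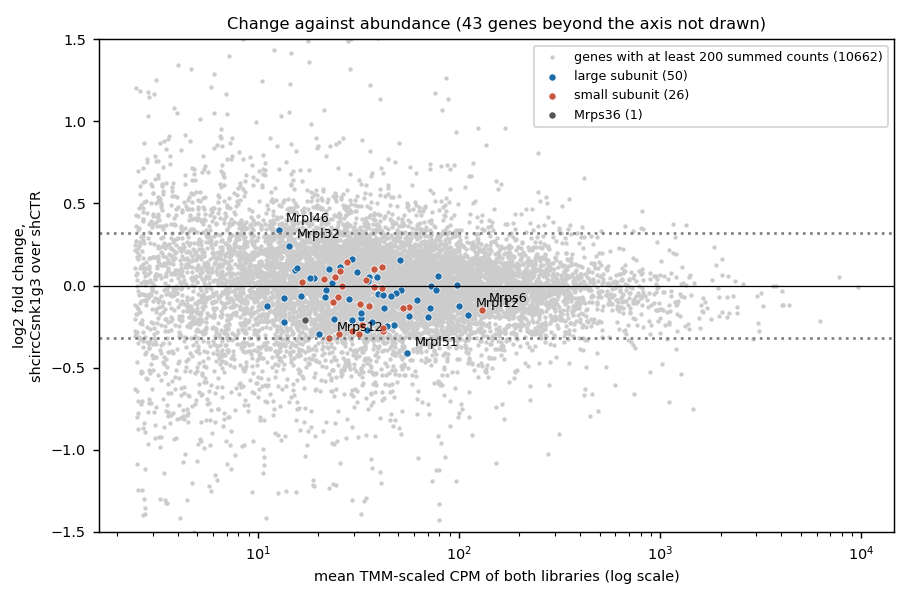
Log2 fold change against mean abundance (CPM, log axis) for the 77 mitochondrial ribosomal protein genes over all genes with at least 200 summed counts, 43 of which lie beyond the axis and are not drawn. The 77 genes form a narrow band at medium abundance, from 11.1 CPM for Mrpl55 to 129.6 for Mrps6.

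The Mrps18 family consists of 3 paralogs, of which Mrps18a is built into the large subunit and the others into the small subunit. Mrps18a had 1538 counts against 1549 (0.10, interval -0.01 to 0.20). Mrps18b had 2105 against 2488 (-0.13, interval -0.22 to -0.05), and 30.5% of its exon bases are shared with an antisense transcript. Mrps18c had 655 against 696 (0.02, interval -0.14 to 0.18). Of the 3, only Mrps18b had an interval that excluded 0, on the low side. Over all genes tested 28.2% of intervals lay below 0 and 26.9% above.

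The 77 genes lie on 17 chromosomes, with at most 10 on any of them. Their principal transcripts were short, with a median of 1288 bases beside 3078 for genes with at least 200 summed counts. Within the 77, the 25 shortest (418 to 995 bases) had a median log2 fold change of -0.12, with 5 above 0 and 13 intervals below 0. The 27 of middle length had a median of -0.03, with 11 above 0 and 10 intervals below 0. The 25 longest (1962 to 7300 bases) also had one of -0.03, with 10 above 0 and 9 intervals below 0. Over all genes tested 50.4% were above 0 and 28.2% had an interval below 0. For each of the 77, the median log2 fold change of tested genes of like GC content and length was also taken. The median of these values was -0.05 over the 25 shortest, -0.03 over the 27 of middle length and 0.02 over the 25 longest. Across the 77 genes the log2 fold change had r = 0.177 and rho = 0.232 with log2 transcript length, and r = -0.20 and rho = -0.22 with GC content, as descriptions over genes of the same 2 libraries. For 32 of the 77 some exon bases are shared with another annotated gene, and for 10 the shared bases, over all overlapping genes, are more than 20% of the exon length.

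RefSeq windows were at hand for 68 of the 77 genes (74 windows). The sequence CCGGAAG, searched on both strands, was in 33.8% of them, beside 17.2% of the windows of all genes tested and 8.86% of all windows of the table. AAGATGGC was in 16.2%, beside 4.30% and 2.75%, and GCATGCGC in 10.8%, beside 5.10% and 2.71%. CACGTG was in 9.46%, beside 9.80% and 7.15%. These 7 windows belonged to 5 of the 68 genes, because overlapping windows of Mrpl2 hold the same site. At least 1 of the 4 sequences was present for 39 of the 68 genes. The median log2 fold change was -0.08 for the 25 genes with CCGGAAG and -0.03 for the 43 without. It was -0.10 with AAGATGGC (12 genes) and -0.05 without, 0.00 with GCATGCGC (8 genes) and -0.07 without, and -0.09 with CACGTG (5 genes) and -0.06 without. Whether genes with and without a match differ was not tested.

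**Figure D5:**
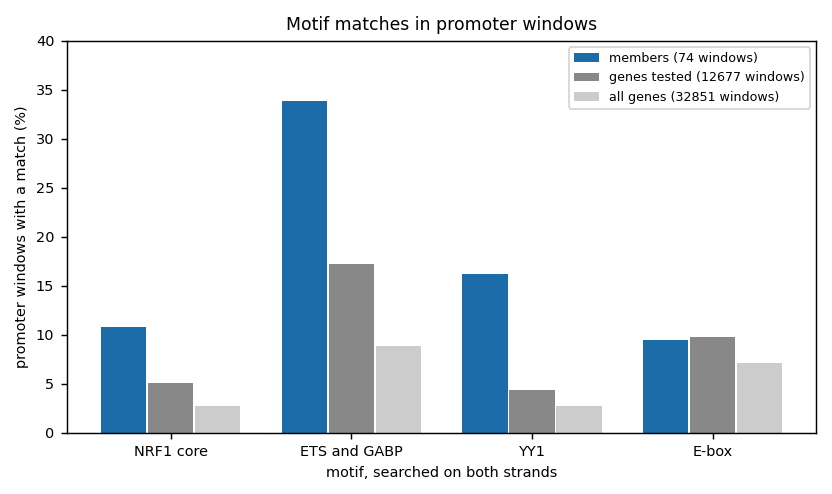
Share of promoter windows that hold each searched sequence, for the mitochondrial ribosomal protein genes, for the genes tested and for all windows of the table. The bars of the mitochondrial ribosomal protein genes are the tallest for the ETS, YY1 and NRF1 sequences, at 33.8%, 16.2% and 10.8%, but not for the E-box.

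Other genes that serve the mitoribosome were taken from lists. The 6 proteins of the particle without an Mrp symbol had a median of -0.06, with 2 above 0 (33.3%, beside 50.4% of all genes tested). Gadd45gip1, a large-subunit protein, had 2573 counts against 3027 (-0.13, interval -0.20 to -0.05). The others were within counting error. Ptcd3, a small-subunit protein, had 3114 against 3515 (-0.07, interval -0.14 to 0.00), and Aurkaip1, also of the small subunit, had 2673 against 3006 (-0.06, interval -0.14 to 0.01). Ict1, a peptidyl-tRNA hydrolase built into the large subunit, had 1048 against 1174 (-0.06, interval -0.18 to 0.07). Dap3, a GTP-binding protein of the small subunit, had 3989 against 4246 (0.02, interval -0.05 to 0.08), and Chchd1 had 1379 against 1466 (0.02, interval -0.09 to 0.13).

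The assembly factors, which modify the rRNAs and put the subunits together, had a median on the other side of 0, a difference that could not be tested. It was 0.05 over 26 genes, with 16 above 0 (61.5%, beside 50.4% of all genes tested). Of the 26 genes, 3 were at least 25% higher (11.5%, beside 12.3% of all genes tested) and 0 at least 20% lower (beside 13.1%). Intervals were above 0 for 8 (30.8%, beside 26.9%) and below 0 for 3 (11.5%, beside 28.2%), so the counts on the higher side were near the background. Mterf4, which brings an rRNA methyltransferase to the large subunit, had 536 counts against 428 (0.43, interval 0.25 to 0.62). Rpusd4, a pseudouridine synthase acting on the large rRNA, had 1048 against 852 (0.41, interval 0.27 to 0.54). Ngrn, of the same pseudouridine synthase module, had 1207 against 1020 (0.35, interval 0.23 to 0.47). In the other direction Noa1, a GTPase of small-subunit assembly, had 1355 against 1759 (-0.27, interval -0.37 to -0.17), and Malsu1, which keeps the subunits from joining early, had 481 against 588 (-0.18, interval -0.36 to -0.01).

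The 15 translation factors had a median of 0.01, with 9 above 0 (60.0%, beside 50.4% of all genes tested). None passed the fold limit, beside 12.3% upwards and 13.1% downwards of all genes tested. The initiation factor Mtif3 had 569 counts against 498 (0.30, interval 0.12 to 0.48) and Guf1 had 863 against 855 (0.12, interval -0.02 to 0.26). Tsfm, the exchange factor of the elongation factor Tu, had 1147 against 1373 (-0.15, interval -0.27 to -0.04), and Taco1, which activates Cox1 translation, had 373 against 455 (-0.18, interval -0.38 to 0.02).

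Of 13 genes of mitochondrial transcription and its regulators, 9 were above 0 (69.2%, beside 50.4% of all genes tested) and the median was 0.07. Ppargc1a, a coactivator of mitochondrial biogenesis, had 144 counts against 117 (0.40, interval 0.05 to 0.77), and Nrf1, which encodes the factor whose core site was searched above, had 2290 against 2063 (0.26, interval 0.17 to 0.34). Esrra had 569 against 670 (-0.13, interval -0.29 to 0.04), and Gabpb1, a subunit of GABP, had 1148 against 1269 (-0.04, interval -0.15 to 0.08). Ppargc1b had 2 counts against 17, at the floor in the shcircCsnk1g3 library.

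The 13 mRNAs that the mitoribosome translates had counts from 10784 to 323249 and a median of -0.03. Intervals were above 0 for 3 (23.1%, beside 26.9% of all genes tested) and below 0 for 7 (53.8%, beside 28.2%). At these counts the intervals were narrow, with a median half-width of 0.015 on the log2 scale, beside 0.118 for all genes tested. The values of the 13 mRNAs were spread to both sides of 0. The mRNA mt-Nd2 had 40968 counts against 57699 (-0.39, interval -0.40 to -0.37) and mt-Nd3 had 12200 against 16059 (-0.29, interval -0.32 to -0.25), both of complex I. At the other end mt-Nd4l, also of complex I, had 10784 against 11087 (0.07, interval 0.03 to 0.11) and mt-Co1, of complex IV, had 310997 against 323249 (0.05, interval 0.04 to 0.06). The mitochondrial rRNAs were not analysed here.

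The offset was not seen in these genes alone. The 83 cytosolic ribosomal protein genes, the counterpart outside the mitochondrion, had a median of -0.04, with 25 above 0 and intervals above 0 for 17 (20.5%) and below 0 for 48 (57.8%). The 79 nuclear genes of oxidative phosphorylation subunits, the partners of the mitochondrially translated chains, had a median of -0.07, with 21 above 0 and intervals above 0 for 5 (6.33%) and below 0 for 39 (49.4%). Over all genes tested these shares were 26.9% and 28.2%. Intervals of the cytosolic genes were far narrower, so smaller changes left 0. Their median half-width was 0.026 on the log2 scale, beside 0.079 for the oxidative phosphorylation genes. It was 0.108 for the 77 genes and 0.118 for all genes tested, so the shares are not on a like footing. The fold limit was passed upwards by 2 and downwards by 1 of the cytosolic genes, and by 1 and 3 of the oxidative phosphorylation genes. These are 2.41% and 1.2%, and 1.27% and 3.8%, beside 12.3% and 13.1% of all genes tested. The shares above 0 were 33.8% for the mitochondrial ribosomal protein genes, 30.1% for the cytosolic ones and 26.6% for the oxidative phosphorylation genes. Whether these groups differ from each other could not be tested with 1 library per condition. After the correction for GC content and length the medians were -0.04 for the mitochondrial ribosomal protein genes, -0.01 for the cytosolic ones and -0.03 for the oxidative phosphorylation genes.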

How the data were processed

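Poly(A) RNA of 1 library per hairpin was sequenced by the authors. Per the labels and the methods of the study, libraries were made with a stranded mRNA kit, and reads were aligned to GRCm38 with STAR and quantified with RSEM. The authors deposited estimated counts per gene as whole numbers for 25509 genes, and 92 rows for spike-ins, which held only 0 and were dropped. They also deposited TMM-scaled CPM for 11624 genes, used here as an alternative. RSEM divides reads that match several genes, so close paralogs depend on that step. The GENCODE release is not given in the sources used here.

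Counts, 38792143 for shcircCsnk1g3 and 42709996 for shCTR, were scaled with TMM in edgeR 4.0.16 (R 4.3.3) over the 12941 genes that reached 10 counts in either library. Log2 fold changes used a prior count of 2, and intervals are 95% Clopper-Pearson from both counts. Counts at or under 3 were taken as the floor. Coordinates, exons and principal transcript lengths are from GENCODE M21, in which all 77 genes were found. Promoter windows are from RefSeq. The alternatives were DESeq2 1.42.0 size factors, total counts, the deposited scaled table, other prior counts, filters and folds, and a GC and length correction. The steps were tested on simulated counts.

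The genes and lists were chosen with earlier results of these data known. Named in full are the 10 highest and 10 lowest genes, the 3 most and 3 least abundant, the Mrps18 family, the proteins without an Mrp symbol, and the 2 highest and 2 lowest of each other list with at least 200 summed counts. Others are named within their group, and Ppargc1b was named after its values were seen.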

Additional observations from a re-analysis of the deposited data

How the results depend on the processing

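Of 126 medians and counts recomputed under the alternatives, 105 stayed within 1.5 times the reported value, and no median and no gene whose interval left out 0 changed sign. All values past that limit came from total counts, the GC and length correction or other folds. The remaining alternatives can hardly move genes with this many counts, so the pooled count says little about them. With total counts, which raised the median of all genes by 0.03, the medians were -0.0342 for the 77 genes, -0.0302 and -0.0540 for the large and small subunits, 0.0837 for the assembly factors, 0.0401 for the translation factors, -0.0005 for the mitochondrially encoded mRNAs, -0.0277 for the proteins without an Mrp symbol, -0.0123 for the cytosolic ribosomal protein genes and -0.0375 for the oxidative phosphorylation genes. With the GC and length correction they were -0.0385 for the 77 genes, -0.0305 for the large subunit, -0.0253 for the proteins without an Mrp symbol, -0.0055 for the cytosolic genes and -0.0251 for the oxidative phosphorylation genes. The count of genes with an interval above 0 was 10 with total counts, beside 6 as reported. The counts past a fold moved with the fold itself. At 1.1-fold 5 genes were higher and 24 lower, and at 1.5-fold and 2-fold 0 were higher and 0 lower. These counts are by the log2 fold change from TMM scaling, with no test. The shares of all genes tested past these other folds are not given here. The counts thus cannot be set against the background and are no result about the 77 genes. All 272 values of 34 single genes stayed within their own intervals. No paired analysis was possible because each hairpin had a single library, and for the same reason no library could be left out. Depth limits each gene to the width of its interval, with a median half-width of 0.108 on the log2 scale over the 77 genes, so most changes of the size of the group's median could not be detected in a single gene.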

Other observations

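Many mitochondrial ribosomal protein genes stand back to back with another gene. In GENCODE M21, 26 of the 77 (33.8%) had the start of a protein-coding gene on the opposite strand within 1000 bases, with up to 500 bases of overlap, beside 1847 of 12380 protein-coding genes tested (14.9%). This feature was looked at after the values were seen. The partners include Sars2, the mitochondrial seryl-tRNA synthetase, beside Mrps12, Ndufs6, a complex I subunit, beside Mrpl36, Fau, which encodes a cytosolic ribosomal protein, beside Mrpl49, and Psma2, a proteasome subunit, beside Mrpl32.

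Partners were near the value of the ribosomal gene in some pairs and not in others. Mrpl51 was at -0.41 while Ncapd2, a condensin subunit whose start lies 100 bases away, had 13278 counts against 15008 (-0.07, interval -0.10 to -0.03). Mrpl32 was at 0.24 while Psma2 had 4519 against 5134 (-0.08, interval -0.13 to -0.02). Mrps12 was at -0.32 while Sars2 had 458 against 468 (0.08, interval -0.11 to 0.27). Among the higher genes Mrpl21 was at 0.16 and Ighmbp2, a helicase, had 726 against 695 (0.17, interval 0.02 to 0.32), and Mrpl50 was at 0.16 and Zfp189 had 523 against 490 (0.20, interval 0.02 to 0.38). In other pairs the partner differed more than the ribosomal gene. Hira, a histone chaperone, had 2446 against 3542 (-0.43, interval -0.50 to -0.35) beside -0.20 for Mrpl40, and Eme2, an endonuclease subunit, had 1035 against 802 (0.47, interval 0.34 to 0.61) beside 0.00 for Mrps34, of whose exon bases 77.8% are shared with Mapk8ip3 on the opposite strand, Nme3 on the same strand or both.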
